A study of Mus musculus with 8 samples.

Results

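The nuclear genes of respiratory complexes II to V were followed in heart muscle cells that had or had not divided. They were taken by name: Cyc1, Cycs, the 4 Sdh genes, and every protein-coding gene whose symbol, older or newer, begins with Uqcr, Cox4 to Cox8 or Atp5. This gave 52 of the 37991 genes counted. Complex II (succinate dehydrogenase) had 4 members, complex III (the cytochrome bc1 complex) 9, the carrier cytochrome c 1, complex IV (cytochrome c oxidase) 18 and complex V (ATP synthase) 20. Of the 20 complex V genes 17 encode subunits. The other 3 carry or once carried an ATP synthase name: Atp5s (coupling factor B, now Dmac2l), Dmac2 (once Atp5sl) and the inhibitor Atpif1 (now also Atp5if1). The members lie on 19 chromosomes. A filter on low counts left 48 for testing, so counts below are over those 48 unless stated.

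Complexes II to IV pass electrons from succinate through ubiquinone and cytochrome c to oxygen, and complexes III and IV pump protons across the inner mitochondrial membrane while doing so. Complex V uses the returning protons to make ATP. Heart muscle draws most of its ATP from this route and is densely packed with mitochondria, and it uses muscle isoforms of several complex IV subunits (among them Cox6a2, Cox7a1 and Cox8b) in place of the forms found in most tissues. Complex II is encoded wholly in the nucleus, whereas complexes III, IV and V also hold subunits from the mitochondrial genome.

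The samples were adult cardiomyocytes isolated from the hearts of alpha-MHC MERCREMER MADM mice. In these mice the cardiomyocyte promoter of alpha-MHC (alpha myosin heavy chain) drives a Cre that tamoxifen activates, and this Cre can recombine MADM, a reporter whose name stands for mosaic analysis with double markers. Hearts of both groups had received adenovirus carrying 4 cell cycle genes, and cells were taken 2 weeks later. By the labels, single colored cells had completed a cell cycle, whereas double colored cells, given the same virus, had not. There were 4 libraries of each, numbered 1 to 4. Each is a bulk RNA library, in which fewer cells of a type and less RNA per cell cannot be told apart. The labels used here give neither the age of the mice nor whether replicates were separate animals, so p-values measure only how these libraries vary, part of which may be technical.

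Between 23820700 and 30082278 reads were counted per library. Mitochondrially encoded genes took 84.2 to 88.3% of them in double and 77.5 to 85.9% in single colored libraries. The 15 cardiomyocyte markers checked (such as Myh6, Tnnt2 and Actc1) took 14.6 to 17.9% of the nuclear-encoded reads in double and 10.3 to 15.6% in single colored libraries, although Tnnc1 was at 0 reads in every library. The 10 myeloid markers took 0.0664 to 0.101% in double and 0.144 to 0.302% in single colored libraries, and the 10 lymphocyte markers 0.000857 to 0.00266% and 0.00997 to 0.0229%. The 8 fibroblast markers took 0.187 to 0.498% and 0.418 to 1.39%. The 7 endothelial markers took 0.0823 to 0.118% and 0.0799 to 0.121%, and the 6 mural markers (such as Acta2 and Rgs5) 0.183 to 0.248% and 0.143 to 0.217%. Single colored replicate 1 had the lowest cardiomyocyte share and the highest myeloid, lymphocyte and fibroblast shares of all 8 libraries.

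Most respiratory genes had lower scaled counts in single than in double colored cells, by a similar amount in every complex. In the main test, which did not pair the libraries, 1 of 48 passed. That gene was Atp5s, encoding a protein associated with ATP synthase, with a log2 fold change of single over double colored cells of −0.88 ± 0.23 (SE). The test was edgeR's quasi-likelihood F-test on counts scaled by the trimmed mean of M-values (TMM), with Benjamini-Hochberg adjustment over 12466 genes at 0.05, and it called 0.16% of all genes lower and 2.32% higher. No member was called higher (4 libraries in each group). A fit that paired the libraries by replicate number, given below, called 12 members lower and 0 higher, against 2.57% and 4.97% of all genes. The numbers were treated as pairs for reasons given under processing, and the main test leaves that pairing out. At an unadjusted p under 0.05, 21 members were lower and 0 higher, against 6.1% of all genes lower. The log2 fold change was negative for 45 of the 48, against 50.6% of all genes, and its median was −0.40, against −0.0053 over all genes. The medians were −0.39 for complex II, −0.40 for complex III, −0.40 for complex IV and −0.39 for complex V. On the TMM scale all 4 single colored libraries lay below all 4 double colored ones for 17 members. That is 35.4% of the 48, against 3.76% of all genes. For 0 members the single colored libraries all lay above (5.37% of all genes). The 3 members with positive values, Cox4i2 (0.28), Cox6a1 (0.23) and Atpif1 (0.020), were not called, and the signs of Cox4i2 and Atpif1 turned when single libraries were left out.

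**Figure D1:**
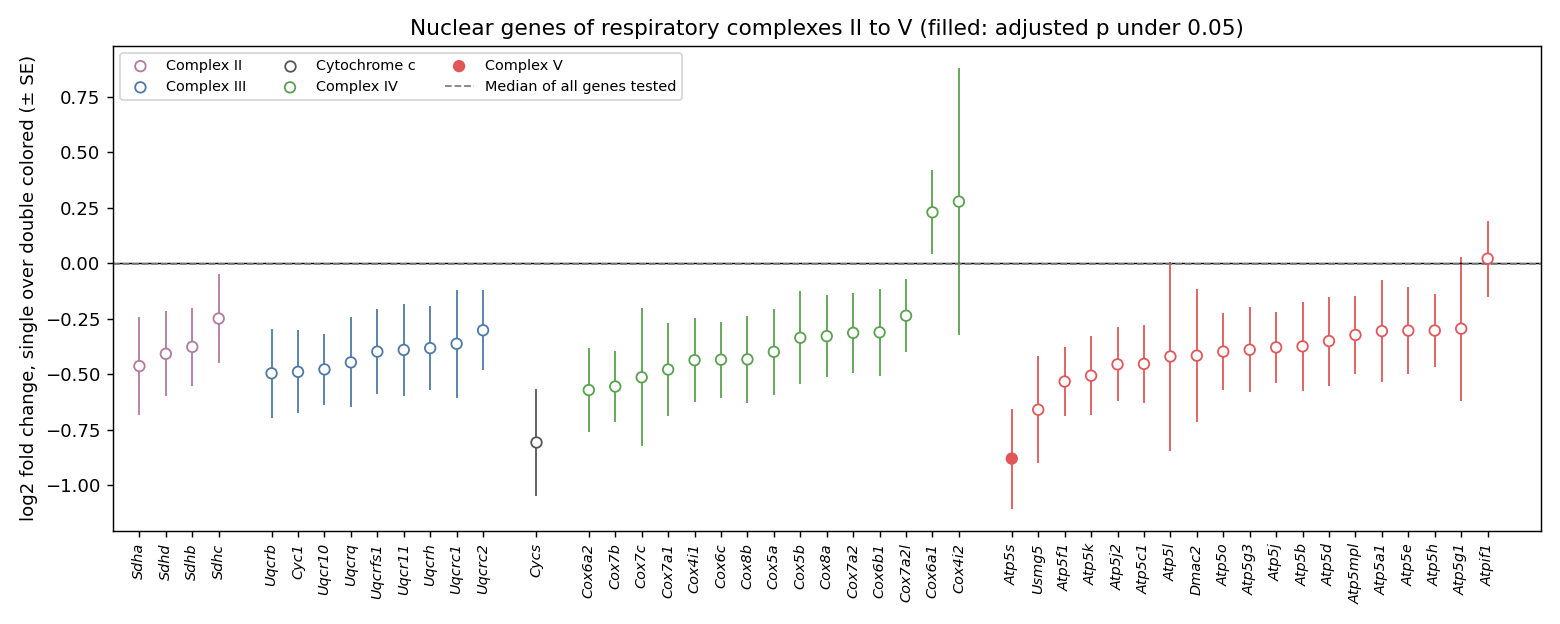
Log2 fold change of single over double colored cells for each of the 48 tested members (y axis, ± SE, 4 libraries per group), ordered within each complex (x axis). Filled points passed the test without pairing of libraries. All but 3 members lie below 0, and Atp5s at −0.88 is the filled point.

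These values moved together with the cardiomyocyte markers. The 14 tested markers had a median log2 fold change of −0.43, with 13 of 14 negative. The 10 myeloid markers had a median of 1.08 and the 7 tested lymphocyte markers one of 3.06, with 0 negative in either list. The 8 fibroblast markers had a median of 0.65, with 2 negative. The medians were near 0 for the 7 endothelial markers (−0.058, 4 negative) and the 6 mural markers (0.042, 2 negative). All members together took 2.56, 2.40, 2.65 and 2.57% of nuclear-encoded reads in double colored replicates 1 to 4 and 1.47, 2.22, 2.16 and 2.41% in single colored replicates 1 to 4. Single colored replicate 1 stood lowest, and the groups overlapped narrowly, since single colored replicate 4 exceeded double colored replicate 2. Set against the reads of the cardiomyocyte markers in the same library, the log2 ratio of member reads was −2.51, −2.90, −2.63 and −2.78 in double and −2.82, −2.78, −2.85 and −2.58 in single colored replicates 1 to 4. On that ratio the groups overlapped throughout. Ttn gave the largest part of the marker reads, with 257274 to 563841 per library, against at most 104831 for any other marker. The ratio and the marker scaling therefore weigh Ttn above the other markers. Scaling the libraries to the cardiomyocyte marker reads brought the members' median to −0.041 with 32 negative (14.7% of all genes were negative) and the median of all genes to 0.40. No member was called lower or higher there, against 0% and 3% of all genes. The part of cell composition in the result was not tested further.

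How libraries are scaled set the sign of most members' values. By library totals alone, without TMM, the median over members was 0.040, with 19 negative and 29 positive. No member was called lower or higher, against 0.00802% and 11.1% of all genes. The same scaling moved the median of all genes to 0.48, with 10.3% negative. Under TMM, marker scaling and library totals alike, the members' median lay below that of all genes. TMM factors were 0.733 to 0.972 in double and 0.953 to 1.44 in single colored libraries. Fold changes, CPM values and the overlap of CPM between groups are on the TMM scale below. Overlap also depended on scaling. Per nuclear-encoded read the groups overlapped for some members that were apart under TMM, among them Sdhb, Cox4i1 and Cycs. Sdha, Cox6a2, Cox7b and Atp5s stayed without overlap.

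**Figure D2:**
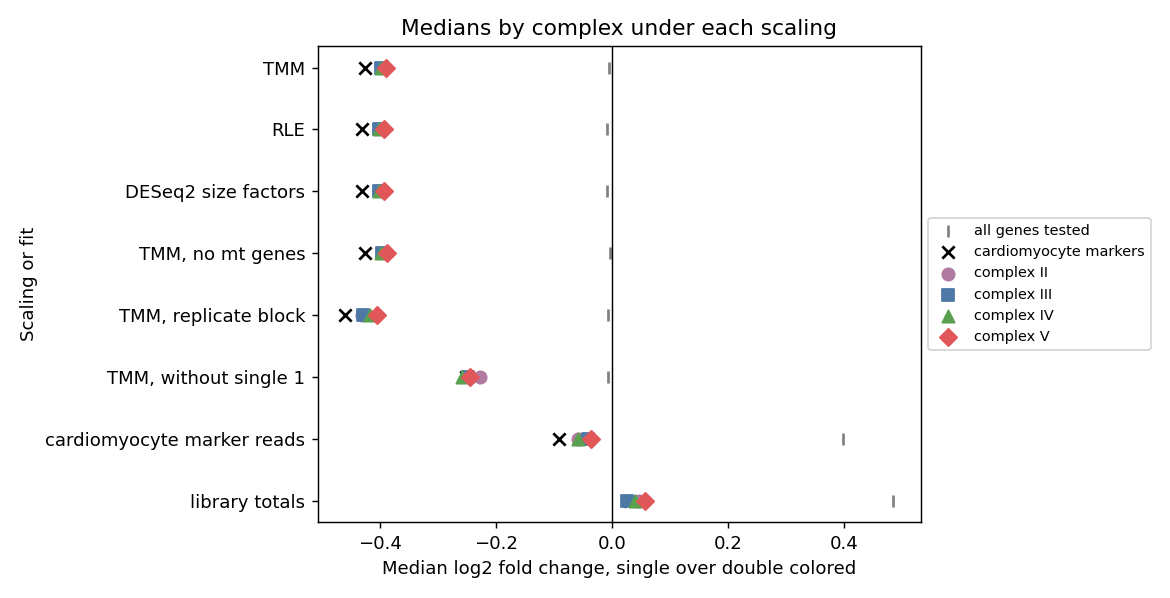
Median log2 fold change of single over double colored cells (x axis) by complex, for cardiomyocyte markers and for all genes tested, under each scaling or fit (y axis). The 4 complexes stay next to the cardiomyocyte markers in each row, and both lie to the left of all genes, which reach 0.48 with library totals.

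One library weighed on the size of the difference. Single colored replicate 1 had the lowest value of all 8 libraries for 40 of the 48 members, against 2346 of all 12466 genes. The same held for 13 of the 14 tested cardiomyocyte markers and 36 of 38 nuclear genes with complex I (Nduf) names. Without it the median over members was −0.25, and without single colored replicate 4 it was −0.53. The call of Atp5s held in 1 of the 8 fits that each left out a library, the one without single colored replicate 3, with adjusted p-values of 0.0402 to 0.163 over the 8 (edgeR). In the other 7 no member was called.

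The replicate numbers were taken to pair the libraries, and a fit with the number as a block called more members. It called 12 lower and 0 higher, against 2.57% and 4.97% of all genes. They were Sdha in complex II, Cyc1 and Uqcr10 in complex III, Cycs, then Cox6a2, Cox6c, Cox7a1 and Cox7b in complex IV, and Atp5c1, Atp5f1, Atp5k and Atp5s in complex V. All 4 numbered pairs had the lower value in single colored cells for 25 of the 48 members, against 13.7% of all genes. Other tests without the block called Atp5s and up to 3 more. DESeq2 called 4 members lower (Atp5s, Cycs, Cox7b and Atp5f1) and 0 higher, against 0.81% and 3.65% of all genes. Limma-voom with quality weights called 2 lower (Atp5s and Cox7b) and 0 higher, against 0.136% and 1.89%. With no filter on low counts edgeR called 3 lower (Atp5s, Cox7b and Cox6a2) and 0 higher, against 0.688% and 2.71%.

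Complex II oxidizes succinate to fumarate in the citric acid cycle and hands the electrons to ubiquinone. Sdha, its flavoprotein (mm9 chr13:74459702-74487728, minus strand), was counted at 218, 259, 277 and 266 CPM (library-size-scaled counts with TMM factors, over totals that include mitochondrial reads) in double colored replicates 1 to 4. In single colored replicates 1 to 4 it was at 99.2, 212, 216 and 212 CPM. The groups did not overlap, and single colored replicate 1 lay far below the rest. The log2 fold change was −0.46 ± 0.22 (SE), with an adjusted p of 0.331 without and 0.0412 with the replicate block (edgeR). Sdhb, the iron-sulfur subunit (mm9 chr4:140517118-140535108, plus strand), had 45.3 to 51.0 CPM in double and 23.7 to 44.9 in single colored libraries, with no overlap. Its log2 fold change was −0.38 ± 0.17 (SE), and the edgeR adjusted p was 0.319. Sdhd, a membrane anchor of the complex (mm9 chr9:50404443-50411954, minus strand), had 59.7 to 74.2 and 30.8 to 62.9 CPM, which overlap, and −0.41 ± 0.19 (SE, edgeR adjusted p 0.324). Of the 4 complex II genes none was called without the block (0.16% of all genes were called lower). For 2 of the 4 all single colored libraries lay below all double colored ones, against 3.76% of all genes. The complex's share of nuclear-encoded reads was 0.278% ± 0.0124 in double and 0.222% ± 0.0546 in single colored libraries (SD, n = 4 each).

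Complex III takes electrons from ubiquinol and passes them to cytochrome c. Uqcr10, one of its small subunits (mm9 chr11:4601976-4604345, minus strand), had 34.7, 33.9, 34.6 and 40.2 CPM in double colored replicates 1 to 4. It had 19.4, 28.3, 23.99 and 31.4 CPM in single colored ones. Every single colored library lay below every double colored one. The log2 fold change was −0.48 ± 0.16 (SE), with an adjusted p of 0.144 without and 0.0196 with the block (edgeR).

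Cyc1, the heme-bearing cytochrome c1 that reduces cytochrome c (mm9 chr15:76173953-76176364, plus strand), had 83.4, 97.8, 114 and 109 CPM in double and 47.0, 75.8, 84.7 and 80.3 CPM in single colored replicates 1 to 4. Single colored replicate 3 passed double colored replicate 1, so the groups overlapped, but the value was lower in single colored cells in each numbered pair. The log2 fold change was −0.49 ± 0.19 (SE), with an adjusted p of 0.209 without and 0.0155 with the block (edgeR). Uqcrb, which helps form the ubiquinone site (mm9 chr13:67001553-67006314, minus strand), had 9.40 to 12.7 and 4.85 to 9.25 CPM without overlap, and −0.50 ± 0.20 (SE, edgeR adjusted p 0.249). All 9 complex III members had negative values, from −0.50 to −0.30, and none was called without the block.

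Cytochrome c, which carries electrons from complex III to complex IV and also takes part in apoptosis, is encoded by Cycs (mm9 chr6:50512562-50516537, minus strand). Its values were 4.77, 3.18, 4.62 and 5.10 CPM in double colored replicates 1 to 4. They were 2.31, 2.90, 1.90 and 3.06 CPM in single colored ones. The groups did not overlap, although double colored replicate 2 came close to single colored replicate 4. The log2 fold change of −0.81 ± 0.24 (SE) was the largest in size after that of Atp5s, with an adjusted p of 0.0989 without and 0.0457 with the block (edgeR). Of the Cycs transcript 35.0% matches other genes at 95% identity or more, and its level is uncertain for that reason. The same limit applies to other members named here, which are listed with the mapping limits below.

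Complex IV hands electrons to oxygen. Of its 15 tested members 13 had negative values, and none was called by edgeR with the default filter and no block. Cox7b, a small subunit (mm9 chrX:103211039-103217789, plus strand), had the smallest p of the complex. It had 142, 138, 154 and 145 CPM in double and 74.6, 102, 107 and 111 CPM in single colored replicates 1 to 4. The highest single colored library lay well below the lowest double colored one. The log2 fold change was −0.56 ± 0.16 (SE), with an edgeR adjusted p of 0.0863 without and 0.0106 with the block, and DESeq2 gave 0.0102.

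Cox6a2, the heart and muscle form of subunit 6a (mm9 chr7:135348950-135349880, minus strand), had 163, 176, 179 and 177 CPM in double and 72.6, 133, 123 and 139 CPM in single colored replicates 1 to 4. The groups did not overlap. Its log2 fold change was −0.57 ± 0.19 (SE), with an adjusted p of 0.145 without and 0.0131 with the block (edgeR). Cox6a1, the form found in most tissues (mm9 chr5:115795651-115798990, minus strand), had 9.13, 8.59, 7.39 and 5.64 CPM in double and 8.36, 8.45, 8.33 and 10.95 CPM in single colored replicates 1 to 4. Its groups overlapped, and its log2 fold change was 0.23 ± 0.19 (SE, edgeR adjusted p 0.637). Of the Cox6a2 exons 10.5% overlap Itgad on the opposite strand, and the labels do not state whether strand was used in counting.

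Among the other subunits of complex IV, Cox6c and Cox7a1 were called with the block. Cox6c (mm9 chr15:35855641-35868001, minus strand) had 60.2 to 63.3 and 32.0 to 58.0 CPM without overlap and −0.43 ± 0.17 (SE), with an edgeR adjusted p of 0.227 without and 0.0406 with the block. Cox7a1, the muscle form of subunit 7a (mm9 chr7:30969190-30971047, plus strand), had 38.3 to 45.6 and 16.1 to 37.3 CPM without overlap and −0.48 ± 0.21 (SE), with an edgeR adjusted p of 0.287 without and 0.0318 with the block. Cox4i1, the main form of the regulatory subunit 4 (mm9 chr8:123192190-123198109, plus strand), had 93.3 to 104 and 45.2 to 91.0 CPM without overlap and −0.44 ± 0.19 (SE, edgeR adjusted p 0.283). Cox8b, the muscle form of subunit 8 (mm9 chr7:148084842-148086345, minus strand), had −0.43 ± 0.20 (SE, edgeR adjusted p 0.306) with overlapping groups. Cox6b1 had −0.31 ± 0.20, Cox7a2 −0.31 ± 0.18 and Cox8a −0.33 ± 0.19 (SE), each with overlapping groups and an edgeR adjusted p of 0.434 to 0.496. Cox4i2, a form of subunit 4 best known from lung, was near the limit of counting at 0.136 to 1.21 CPM, with 0.28 ± 0.60 (SE, edgeR adjusted p 0.890). Cox6b2, Cox7b2 and Cox8c, which are known mainly from testis, were too low to test, with at most 0.259, 0.0520 and 0 CPM in any library.

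**Figure D3:**
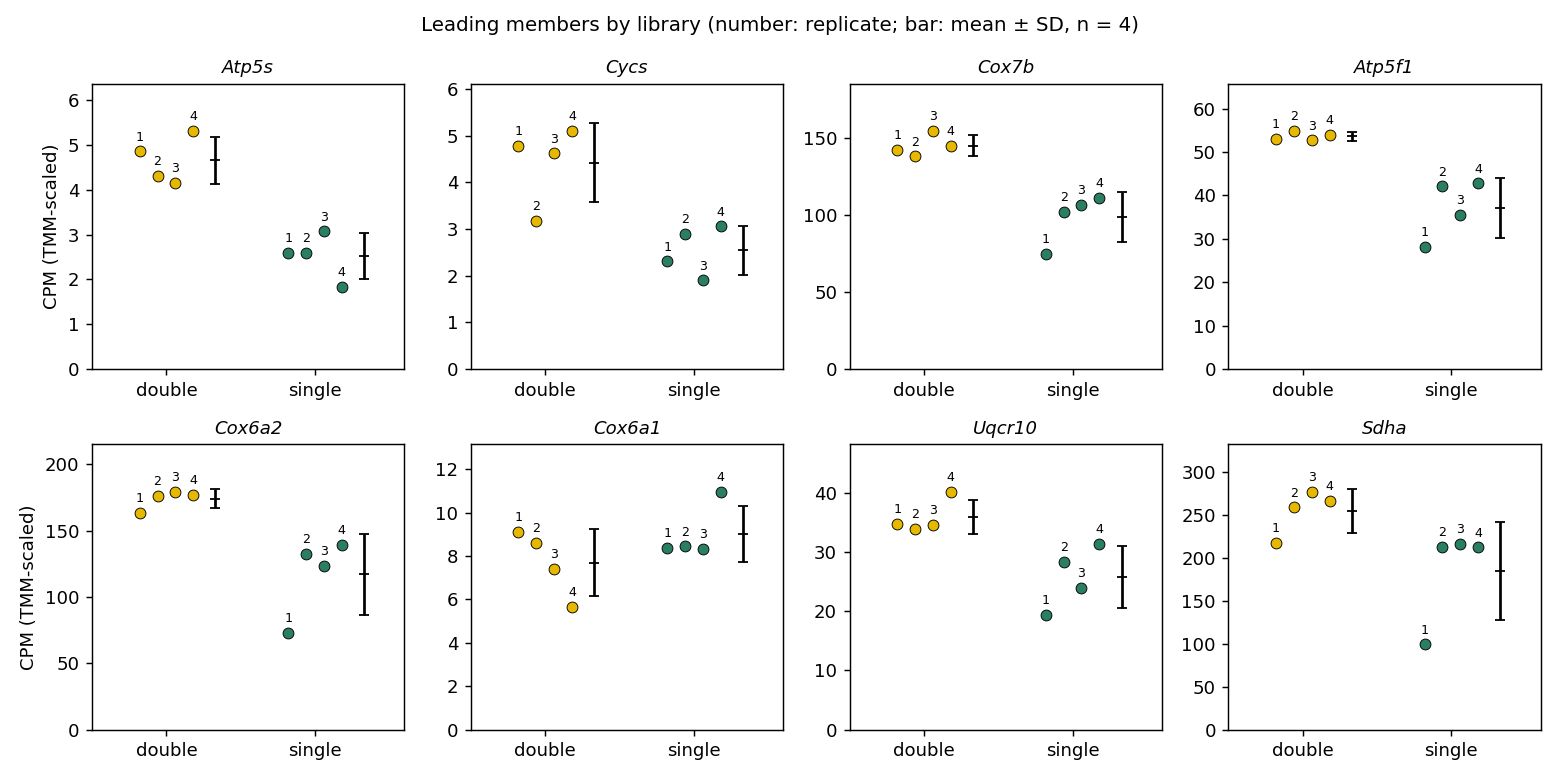
CPM, TMM-scaled, of 8 members (y axes, each starting at 0) in the double and single colored libraries (x axis). Numbered points are replicates and bars give the mean ± SD (n = 4), and in all panels but Cox6a1 the single colored points lie below the double colored ones.

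Isoform pairs of complex IV were compared as the ratio of reads within each library, which no scaling can alter. Cox6a1 reads were 5.605, 4.89, 4.14 and 3.20% of Cox6a2 reads in double colored replicates 1 to 4. They were 11.5, 6.38, 6.76 and 7.87% in single colored ones. Every single colored library had a higher ratio than every double colored one, and the ratio was higher in 4 of 4 numbered pairs. The mean ratio was 1.81-fold higher in single colored cells, a log2 difference of 0.86 (exact permutation test over 70 groupings, two-sided, p = 0.0286, the smallest this design allows, and 0.143 adjusted over the 5 pairs). Within the numbered pairs the exact permutation p was 0.125, again the smallest possible. The difference does not pass 0.05 after adjustment.

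The other pairs did not pass the test. Cox7a2 reads were 42.98 to 57.6% of Cox7a1 reads in double and 50.9 to 68.1% in single colored libraries (log2 difference 0.20, exact permutation p = 0.257). Cox8a reads were 22.8 to 30.3% and 19.0 to 43.1% of Cox8b reads (0.17, exact permutation p = 0.6), and this difference was −0.019 without single colored replicate 1. Cox4i2 reads were 0.170 to 1.19% and 0.284 to 1.77% of Cox4i1 reads (0.94, exact permutation p = 0.286). Cox6b2 reads stayed under 0.884% of Cox6b1 reads in 7 of the libraries and reached that value in single colored replicate 2 (−0.85, exact permutation p = 0.714).

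**Figure D4:**
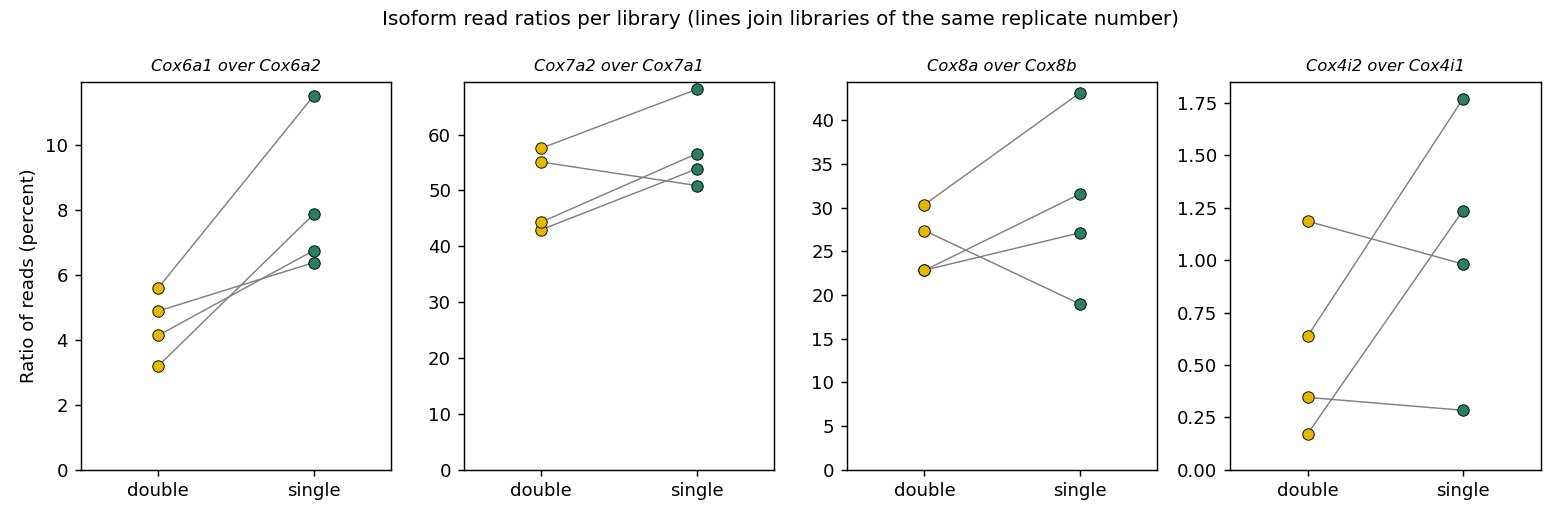
Ratio of the reads of the low to the high isoform (y axes, percent, each starting at 0) in double and single colored libraries (x axis), with lines joining libraries of the same replicate number. The Cox6a1 to Cox6a2 ratio is higher at the single colored end of all 4 lines, while the other 3 pairs have lines in both directions.

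Complex V makes ATP with a catalytic head (F1), a membrane rotor and stalks between them. All 16 of its tested subunits had negative values, with a median of −0.38. Atp5s (mm9 chr12:70825949-70845645, plus strand), the member called in the main test, had 4.86, 4.32, 4.15 and 5.31 CPM in double colored replicates 1 to 4. It had 2.59, 2.58, 3.07 and 1.83 CPM in single colored ones. No single colored library reached the lowest double colored one, and the lowest of all was replicate 4, not replicate 1. The mean was 45.7% lower in single colored cells (log2 −0.88 ± 0.23 SE, 95% interval −1.36 to −0.40), with an adjusted p of 0.0491 in edgeR, 0.0096 in DESeq2 and 0.0420 in limma-voom. With the block the edgeR adjusted p was 0.0237. With library totals alone its log2 fold change was −0.37 and it was not called. Its transcript has no near-identical copy and its exons overlap no other gene.

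Atp5f1, subunit b of the outer stalk (mm9 chr3:105745616-105763017, minus strand), had 53.0, 54.8, 52.7 and 54.0 CPM in double and 28.1, 42.1, 35.4 and 42.8 CPM in single colored replicates 1 to 4. The double colored libraries lay close together and above all single colored ones. Its log2 fold change was −0.53 ± 0.15 (SE), with an adjusted p of 0.0854 without and 0.0105 with the block (edgeR). Atp5k, subunit e of the membrane part (mm9 chr5:108862263-108863467, minus strand), had 30.2 to 37.9 and 17.9 to 31.2 CPM, which overlap, and −0.51 ± 0.18 (SE), with an edgeR adjusted p of 0.173 without and 0.0407 with the block. Chosen after their values were seen, Usmg5 (a small membrane subunit, newer name Atp5md) had −0.66 ± 0.24 (SE, edgeR adjusted p 0.188). Atp5c1, the gamma subunit of the central stalk, had −0.45 ± 0.18 (SE), with an edgeR adjusted p of 0.221 without and 0.0362 with the block.

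Atpif1, the inhibitor that blocks ATP hydrolysis by the enzyme, had a value near 0, where all 16 tested subunits were negative. It had 15.7, 10.3, 11.9 and 12.9 CPM in double and 10.8, 13.6, 11.7 and 15.5 CPM in single colored replicates 1 to 4, which overlap. Its log2 fold change was 0.020 ± 0.17 (SE, 95% interval −0.34 to 0.38), and it was named after this value was seen. Of its exons 33.7% overlap Gm12999 on the opposite strand. Atp5g2, 1 of 3 genes for the c subunit of the rotor ring, was too low to test at 0.0349 to 0.198 CPM.

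The sequences before the start of 4 members are given here. They were chosen because Atp5s was the member called in the main test, Cycs and Cox7b had low values in every single colored library, and Cox6a1 did not. Each is the 250 bases before the start of transcription on the gene's strand, 5′ to 3′, from RefSeq on GRCm38.p6. Capitals mark matches to the motifs searched.
Atp5s (chr12:69724695-69724944, plus strand): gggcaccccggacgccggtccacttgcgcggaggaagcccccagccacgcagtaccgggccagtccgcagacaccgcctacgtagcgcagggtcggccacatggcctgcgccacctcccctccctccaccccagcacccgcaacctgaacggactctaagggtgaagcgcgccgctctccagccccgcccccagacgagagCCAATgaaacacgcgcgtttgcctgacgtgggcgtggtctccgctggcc
Cycs (chr6:50566570-50566819, minus strand): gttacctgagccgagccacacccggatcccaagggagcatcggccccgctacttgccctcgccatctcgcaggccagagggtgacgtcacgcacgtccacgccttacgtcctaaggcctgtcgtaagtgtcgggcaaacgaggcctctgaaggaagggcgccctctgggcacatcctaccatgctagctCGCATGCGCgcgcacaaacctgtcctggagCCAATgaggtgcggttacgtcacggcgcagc
Cox7b (chrX:106015450-106015699, plus strand): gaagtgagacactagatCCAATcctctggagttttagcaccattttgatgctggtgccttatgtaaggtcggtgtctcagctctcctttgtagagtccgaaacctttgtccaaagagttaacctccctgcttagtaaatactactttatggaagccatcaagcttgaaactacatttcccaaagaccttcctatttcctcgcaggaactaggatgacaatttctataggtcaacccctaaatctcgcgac
Cox6a1 (chr5:115348959-115349208, minus strand): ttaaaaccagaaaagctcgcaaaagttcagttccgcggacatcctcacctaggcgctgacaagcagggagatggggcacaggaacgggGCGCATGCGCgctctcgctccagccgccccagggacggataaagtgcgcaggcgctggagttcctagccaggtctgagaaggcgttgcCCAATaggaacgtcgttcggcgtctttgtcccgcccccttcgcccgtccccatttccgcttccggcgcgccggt

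The motifs were searched on both strands in windows from 250 bases before to 50 after the start. They were GCGCATGCG for NRF1 and ACTTCCGG for the ETS family, both known from promoters of respiratory genes, TCAAGGTCA for the estrogen-related receptors and CCAAT for NF-Y. Cycs holds the NRF1 motif from position −61 and CCAAT from −31. Cox6a1 holds the NRF1 motif from −162 and, on the other strand, from −161, and CCAAT from −74. Atp5s holds CCAAT from −49, and Cox7b holds it from −233. Promoter windows were matched for 40 of the 52 members. The NRF1 motif was in 7 of them (17.5%, against 1.95% of 27025 genes), the ETS motif in 4 (10%, against 4.31%), the ERR motif in 2 (5%, against 0.466%) and CCAAT in 23 (57.5%, against 41.1%). Matches of different motifs overlapped in 0 cases. Of the 7 members with the NRF1 motif Atp5g2 was not tested, and the log2 fold changes of the others were −0.81 for Cycs, 0.23 for Cox6a1 and −0.51 to −0.36 for the remaining 4. A match describes the letters only.

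Levels within a complex spanned a wide range when reads were divided by exon length and by the nuclear-encoded reads of the library (RPKM over nuclear-encoded reads). That length merges the gene's exons and can exceed its longest coding transcript, as for Cox6c (3567 against 738 bases), which lowers the level. In complex II the mean level over the 8 libraries ran from 122 RPKM for Sdhb to 367 for Sdha. In complex III it ran from 65.5 for Uqcrb to 470 for Cyc1. Complexes IV and V spread much further, from 5.25 for Cox4i2 to 1436 for Cox6a2 and, among the subunits of complex V, from 8.68 for Atp5g1 to 1486 for Atp5b, the catalytic beta subunit. The ratio of Sdha to Sdhb stayed between 2.42 and 3.45 over the 8 libraries, and that of Cyc1 to Uqcrb between 6.33 and 8.48. The muscle forms stood above their counterparts, with Cox6a2 at 1436 against 78.7 for Cox6a1, Cox7a1 at 649.7 against 164 for Cox7a2 and Cox8b at 509.7 against 91.1 for Cox8a.

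**Figure D5:**
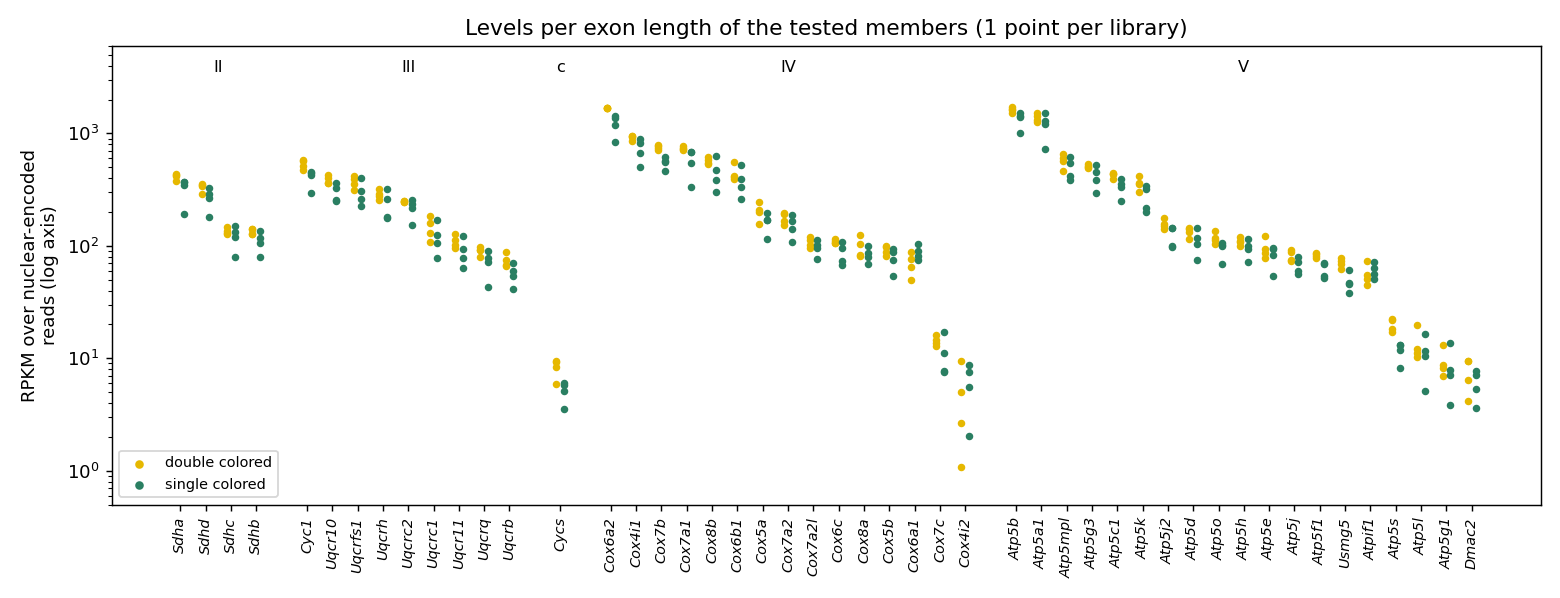
Level per exon length of the 48 tested members (y axis, RPKM over nuclear-encoded reads, log axis), ordered by level within each complex (x axis). Each point is 1 library, double colored on the left and single colored on the right of each gene, and levels run from about those of Cox4i2 (mean 5.25) to Atp5b (mean 1486).

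Mapping limits what can be read from low levels. File headers point to alignments restricted to high mapping quality, and 19 of the tested members have stretches near-identical to other genes. Those 19 had a median level of 97.7 RPKM, against 232 RPKM for the 29 without. Both classes hold low members: Cycs (35.0% of its transcript), Cox7c (32.9%) and Atp5l (72.2%) have such stretches, while Cox4i2, Dmac2 and Atp5s have none. Atp5h (80.5%, 103 RPKM) and Atp5o (76.7%, 106 RPKM) were largely covered and not among the lowest. Of the members called with the block, Atp5k (56.6%), Atp5f1 (52.6%), Uqcr10 (43.8%), Atp5c1 (37.5%) and Cox6c (31.3%) also have such stretches. Cox7b has them over a smaller part of its transcript, and Uqcrb, not called, over 62.8%. The levels of these members are uncertain for the same reason as that of Cycs. Sdha, Cyc1, Cox6a2, Cox7a1 and Atp5s, also called with the block, have none. The fold changes differed little between the classes, with medians of −0.43 and −0.38. Among the 24 members with neither a near-identical stretch nor an overlapping gene, 22 had negative values and the median was −0.39.

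The mitochondrial genome supplies partner subunits for complexes III, IV and V. mt-Cytb, the cytochrome b of complex III, had 26680, 30401, 22612 and 26193 CPM in double and 14227, 21519, 12910 and 21868 CPM in single colored replicates 1 to 4. mt-Co1, the catalytic subunit of complex IV, had 52977, 54809, 42480 and 52146 CPM in double and 26890, 40138, 26366 and 38275 CPM in single colored ones. For both genes all single colored libraries lay below all double colored ones, which held for 3.76% of all genes. Their log2 fold changes were −0.59 ± 0.23 and −0.62 ± 0.23 (SE), with edgeR adjusted p-values of 0.234 and 0.190 without and 0.0496 and 0.0459 with the block. With library totals they were −0.15 and −0.17. mt-Co2, mt-Co3, mt-Atp6 and mt-Atp8 had 0 to 4 reads in every library and could not be compared, whereas mt-Co1 had at least 964433. Whether mapping limits gave these low counts was not tested, so they should not be read as absence of the transcripts. The log2 ratio of nuclear member reads to the reads of these 6 genes, nearly all from mt-Cytb and mt-Co1, was −4.66 to −4.08 in double colored libraries. In single colored libraries it was −4.55 to −3.68, which overlaps.

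Assembly factors of the complexes and some related genes, such as Lrpprc and Taco1, were tested as a separate list. Of 34 tested, 0 were called in either direction by edgeR, 3 were lower and 0 higher at an unadjusted p under 0.05 (6.1% of all genes were lower), and the median log2 fold change was −0.22. With the block 1 was called lower (2.57% of all genes), Cox14, named after its value was seen, at −0.63 (edgeR adjusted p 0.109 without and 0.0386 with the block). The 38 nuclear Nduf genes, taken by name for complex I though not all encode its subunits, had a median of −0.35, all negative. None was called by edgeR, 9 were lower and 0 higher at an unadjusted p under 0.05 (6.1% of all genes lower), and the block called 4 lower (2.57% of all genes). The difference between these lists was not tested.

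A fold change is given in the authors' deposited table for 49 members, and 46 of them are higher in double colored cells. In the authors' deposited table, 9 have a raw p under 0.05 and 0 an FDR under 0.05, the smallest member FDR being 0.295.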

How the data were processed

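RNA from 4 single and 4 double colored samples was extracted with a micro RNA kit and amplified with Ovation RNA-seq System v2, per the labels' protocols. Alignment to mm9 used STAR 2.5.2b and counting used featureCounts of Subread, per the submitters' processing notes, and alignment names in the file headers point to a mapping quality of 30. Per the file headers, the deposited table holds raw counts, which are whole numbers rather than expected counts estimated by a model. Its log2 fold changes and p-values were deposited by the authors, run from single to double colored cells, and come from a test not given in the sources used here.

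Gene symbols came from GENCODE vM21 by Ensembl identifier (32919 matched, 5072 did not), and coordinates are those of the deposited table. Members and lists were chosen with earlier results of these data known. Counts were tested with edgeR 4.0.16 in R 4.3.3 (filterByExpr with a minimum count of 10, TMM, robust quasi-likelihood F-test, Benjamini-Hochberg adjustment). DESeq2 1.42.0 and limma 3.58.1 (voom with quality weights), a replicate block, other scalings and filters, and leaving out each library were alternatives. The fit was tested on simulated data. Isoform ratios used 0.5 added to each count and exact permutation tests (scipy 1.17.1). Near-identical stretches were found with blastn 2.17.0 against GENCODE transcripts (identity of at least 95% over at least 50 bases).

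Named with values were every member past the threshold, the 3 with the smallest p in each complex, Cycs, the isoform pairs and the members not tested; the rest are given by range and counts. After centring each group, libraries with the same number correlated over all tested genes (r = 0.299, 0.167, 0.184 and 0.168 for numbers 1 to 4), and libraries with different numbers by at most 0.128. A value over 0.1 does not by itself mark a pair, since the 0.128 also exceeds it. Each same-numbered r exceeded 0.128, and same-numbered libraries share an id in the labels, so the numbers were treated as pairs.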

Additional observations from a re-analysis of the deposited data

Results flagged for a closer look

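In all, 76 groups of 4 libraries were examined, for named members by CPM, for isoform ratios and for shares of nuclear-encoded reads. Of these, 5 had 1 library far from the other 3, and chance gives about 1 in 20. All 5 were groups of members by CPM. Sdha, the flavoprotein of complex II, stood at 99.2 CPM in single colored replicate 1, against 212 to 216 in the other single colored libraries. Cox6a1, the widespread form of subunit 6a, stood at 10.95 CPM in single colored replicate 4, against 8.33 to 8.45 in the others. Uqcr10 was at 40.2 CPM in double colored replicate 4, against 33.9 to 34.7, and Uqcrb at 12.7 CPM in double colored replicate 3, against 9.40 to 9.67. Cox7b2 was at 0.0520 CPM in single colored replicate 3, which is 2 reads, and at 0 in the others.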

How the results depend on the processing

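Members called lower numbered 12 with the replicate block, 4 with DESeq2 (Atp5s, Cycs, Cox7b, Atp5f1), 3 with no filter on low counts (Atp5s, Cox7b, Cox6a2), 2 with limma-voom (Atp5s, Cox7b), and 0 with library totals, with scaling to cardiomyocyte markers and with a filter of 5 CPM in 4 libraries. Over fits leaving out libraries they numbered 0 to 1. Genes called higher in the whole table numbered 619 with the block, 455 with DESeq2, 642 with no filter, 1389 with library totals, 93 with the 5 CPM filter, 135 without both libraries numbered 1, and 133 to 277 with 1 library left out. Those called lower numbered 320, 101, 163, 1, 4, 11 and 1 to 29 in the same order, and 0 with marker scaling. The block and DESeq2 each called 2 mitochondrially encoded partners lower. The block called 1 assembly factor lower, and library totals called 1 higher.

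The median over members was −0.53 to −0.25 with libraries left out. With library totals the medians were 0.040 for all members and 0.045, 0.025, 0.039 and 0.057 for complexes II to V. With marker scaling they were −0.041 and −0.059, −0.042, −0.060 and −0.037. Among the members named by rule, signs turned with library totals for Sdhb (0.067), Sdhd (0.024), Cox6b1 (0.12), Cox7a2 (0.14) and Cox8a (0.14), and with marker scaling for Cox6b1 (0.010), Cox7a2 (0.025) and Cox8a (0.052); over all tested members 29 were positive with library totals and 16 with marker scaling, against 3 with TMM. With libraries left out, Cox4i2 ranged from −0.045 to 0.95, Atpif1 from −0.090 to 0.13 (0.22 without both libraries numbered 1) and the Cox8a to Cox8b log2 difference from −0.019 to 0.38. The Cox6a1 to Cox6a2 log2 difference ranged from 0.68 to 0.98. The causes were not tested. Beyond the calls given, the block changed no call of a named member.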
